A study of Mus musculus with 8 samples.

Results

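The Notch genes of the embryonic outflow tract and right ventricle comprised 10 genes of the pathway, 3 receptors (Notch1, Notch2, Notch3), 3 ligands (Jag1, Jag2, Dll4) and 4 transcription factors that act as its targets (Hes1, Hey1, Hey2, Heyl). They were picked by symbol, as well-known pathway genes, out of 20701 gene symbols in the table, and each was represented by 1 transcript. RNA was sequenced from outflow tract and right ventricle dissected together at E10.5, from 4 CTRL embryos, labelled wild type, and 4 Isl1_hypo embryos, labelled as Isl1 hypomorphs. All 8 embryos were of the C57BL/6 strain, each library came from a single embryo, and the hypomorphic line is described in the study as Isl1-f;neo/f;neo, an allele carried by the whole embryo and not restricted to one cell type. Isl1 is a LIM-homeodomain transcription factor of the second heart field, the progenitors that build the outflow tract and right ventricle. The comparison asked whether transcripts of Notch signalling differed between the groups when Isl1 was reduced.

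Notch receptors sit on one cell and are engaged by Jagged or Delta ligands on its neighbour. Ligand binding lets the protease Adam10 and then gamma-secretase cut the receptor, and the freed intracellular domain joins the DNA-binding protein Rbpj and Mastermind proteins at target genes such as Hes and Hey. In the embryonic heart the pathway is known for its roles in the endocardium, the valve cushions, the outflow tract wall and the arteries, and Hey2 for its expression in ventricular myocardium.

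Promoters in RefSeq (GRCm38.p6) were found for 7 of the 10 genes, Notch1, Notch2, Notch3, Jag1, Jag2, Dll4 and Hey2. None was found for the targets Hes1, Hey1 and Heyl, so Hey2 was the only target searched. A window of 270 bases, 250 before and 20 after the transcription start, was searched on both strands for TGGGAA, the core of the sequence Rbpj binds, and for CTAATG, a core bound by Isl1. Hey2 was the 1 gene of the 7 whose window held the Rbpj core, with 2 matches, whereas 23.1% of all 32851 promoters held at least 1. The Isl1 core was in 0 of the 7 windows and in 6.79% of all promoters. Shown 5′ to 3′ are the Hey2 window (chr10:30842764-30843033, minus strand), for its matches, and those of Notch3 (chr17:32166871-32167140, minus strand) and Jag2 (chr12:112929476-112929745, minus strand), the 2 genes whose CTRL and Isl1_hypo libraries did not overlap. Capitals mark the Rbpj core, which reads TTCCCA where it lies on the opposite strand.
Hey2: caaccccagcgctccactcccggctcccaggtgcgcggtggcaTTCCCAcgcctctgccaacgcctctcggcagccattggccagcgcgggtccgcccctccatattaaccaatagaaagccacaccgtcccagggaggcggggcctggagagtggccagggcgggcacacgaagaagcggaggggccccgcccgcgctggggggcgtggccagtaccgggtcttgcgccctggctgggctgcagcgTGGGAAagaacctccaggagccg
Notch3: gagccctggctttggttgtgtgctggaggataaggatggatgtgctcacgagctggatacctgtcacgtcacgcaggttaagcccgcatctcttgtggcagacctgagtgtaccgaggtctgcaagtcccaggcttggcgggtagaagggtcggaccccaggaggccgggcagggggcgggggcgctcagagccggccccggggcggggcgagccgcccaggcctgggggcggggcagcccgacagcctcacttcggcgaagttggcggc
Jag2: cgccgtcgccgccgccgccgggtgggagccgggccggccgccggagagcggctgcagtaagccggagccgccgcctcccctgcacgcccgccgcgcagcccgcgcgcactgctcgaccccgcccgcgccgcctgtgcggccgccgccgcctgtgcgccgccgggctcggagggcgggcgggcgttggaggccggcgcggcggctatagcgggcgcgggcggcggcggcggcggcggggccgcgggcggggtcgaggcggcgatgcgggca
These matches describe the letters of the windows, and binding was not measured in these libraries.

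Counts over the 1 transcript kept for each symbol summed to between 29748455 and 46678970 in the CTRL libraries and to between 18422250 and 33050295 in the Isl1_hypo libraries. Values below are library-scaled counts (CPM, TMM scaling), and differences are log2 fold changes of Isl1_hypo over CTRL from edgeR, with p-values adjusted over all 13769 genes tested. The library Isl1_hypo replicate 3 stood apart from the other 7, at 72.0 on the first principal component (37.8% of the variance) where the others lay between -17.7 and 3.97, so the members' results are given with and without it. Isl1 itself, the targeted gene, measured 29.6, 61.5, 46.2 and 51.3 CPM in the CTRL libraries and 12.7, 6.86, 7.71 and 11.4 CPM in the Isl1_hypo libraries. It fell by 2.29 on the log2 scale (SE 0.256, edgeR adjusted p = 0.0077), and by 2.20 without Isl1_hypo replicate 3. The size of this fall was kept with a globin covariate (-2.30, edgeR adjusted p = 0.518) and with a replicate block (-2.29, edgeR adjusted p = 0.0722), but neither passed the threshold. Globin transcripts summed to 2020 to 11896 CPM in CTRL and to 11870 to 25516 CPM in Isl1_hypo, and Y-linked transcripts were present in 1 of 4 CTRL and 3 of 4 Isl1_hypo libraries. Myocardial markers summed to 42390 to 51945 CPM in CTRL and 46832 to 55603 CPM in Isl1_hypo, although 2 of the 9, Myh6 (log2 fold change -0.31) and Myh7 (-0.49), were lower at an unadjusted p under 0.05. The 7 outflow tract markers, a list that includes Isl1, summed to 625 to 713 and 335 to 459 CPM (372 to 459 without Isl1_hypo replicate 3). Within that list Bmp4 fell by 0.94 on the log2 scale (edgeR adjusted p = 0.017), and 6 of the 7 were lower in Isl1_hypo, 4 of them at an unadjusted p under 0.05 and 3 without overlap, while Hand2 was at 0.01.

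None of the 10 Notch genes passed the adjusted threshold of 0.05. Heyl, Jag2 and Notch3 had the largest differences, each lower in Isl1_hypo on average. Hes1, Hey1, Hey2, Jag1 and Dll4 each had means within 10% of each other in the 2 groups. In edgeR 0 of 10 were called, against 0.269% of all genes tested (37 of 13769, 20 higher and 17 lower), and DESeq2, which called 2.32% of all genes, and limma-voom with sample weights, which called 0.973%, also called 0. At an unadjusted p under 0.05 there were 3 of 10, all lower in Isl1_hypo, where 11.9% of all genes passed in either direction and 6.17% were lower. DESeq2 gave 3 of 10 at that level, where 13.2% of all genes passed, and limma-voom 4 of 10, Notch2 being the added gene, where 13.7% passed. The groups did not overlap for 2 of 10, again lower in Isl1_hypo, against 4.44% of all genes. The fitted difference was negative for 7 of the 10 and positive for 3, with a median of -0.15, where the median of all genes tested was 0.01. The median without Isl1_hypo replicate 3 was -0.03, and -0.04 with the length trend removed. In dissected tissue, fewer cells of a type and less RNA per cell cannot be told apart.

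**Figure D1:**
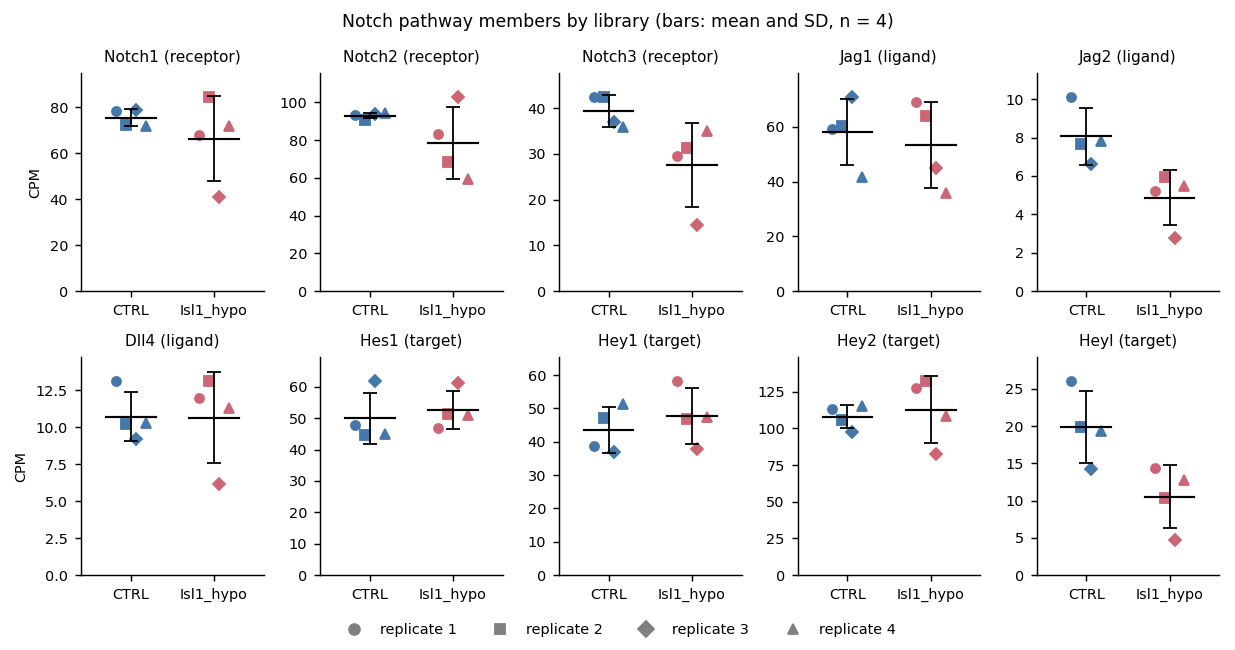
Library-scaled level (CPM, linear axis from 0) of each of the 10 Notch genes in 4 CTRL and 4 Isl1_hypo libraries. Symbols stand for replicates, which are not paired between groups, and black bars for the mean and SD. Only Notch3 and Jag2 have groups that do not overlap, and Isl1_hypo replicate 3 (diamond) is the lowest library of its group for 7 of the 10 genes.

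Per transcript length the targets Hey2, Hes1 and Hey1 were the most abundant of the 10 genes and Jag2 the least, with the target Heyl among the low ones. In the deposited RPKM, Hey2, a repressor of the Hairy-related family, averaged 26.3 ± 2.22 in CTRL (SD, n = 4), followed by Hes1 at 21.2 ± 3.29 and Hey1 at 12.1 ± 1.90. Jag1 averaged 6.51 ± 1.33 RPKM, Notch2 5.45 ± 0.104 and Notch1 4.88 ± 0.259. Lowest were Notch3 at 3.06 ± 0.304 RPKM, Heyl at 2.70 ± 0.701, Dll4 at 1.91 ± 0.327 and Jag2 at 1.23 ± 0.244. Neighbours whose CTRL libraries overlapped were Hey2 and Hes1, Jag1 and Notch2, Notch3 and Heyl, and Heyl and Dll4. The other neighbours, Hes1 and Hey1, Hey1 and Jag1, Notch2 and Notch1, Notch1 and Notch3, and Dll4 and Jag2, did not overlap in CTRL. In Isl1_hypo the order of the means was the same except that Dll4, at 1.87 RPKM, stood above Heyl, at 1.41. These levels rest on 1 annotated transcript length for each gene, and scaled by TMM over the 1 transcript per symbol they were higher in the same order, at 42.8 CPM per kb for Hey2 and 3.12 for Dll4.

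**Figure D2:**
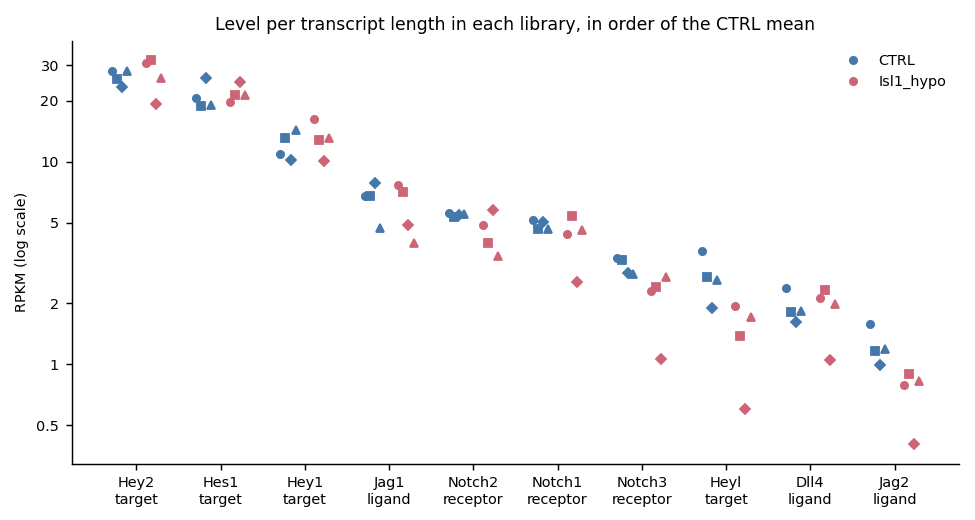
RPKM (log axis) of the 10 Notch genes in each of 8 libraries, from the highest to the lowest CTRL mean. Hey2, Hes1 and Hey1 lie above 10 RPKM in all libraries and Jag2 lies below 1.6 RPKM in all of them.

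Among the receptors, Notch3 had groups that did not overlap, and for the other 2 receptors the 95% interval of the difference held 0. Notch3, the receptor best known from vascular smooth muscle and pericytes (mm9, chromosome 17, 32257765 to 32303825), measured 42.5, 42.5, 37.0 and 36.0 CPM in CTRL and 29.6, 31.3, 14.4 and 35.0 CPM in Isl1_hypo. The Isl1_hypo library nearest to CTRL, replicate 4, was just under the lowest CTRL library, and replicate 3 was far below the rest. The mean was 69.8% of CTRL, with a log2 fold change of -0.52 (SE 0.229, 95% interval -1.02 to -0.02, edgeR adjusted p = 0.402). The exact permutation test (2-sided, 70 assignments) gave p = 0.0286, the smallest that 4 against 4 libraries allow. Groups that do not overlap always give this value, so it only restates the separation. Without Isl1_hypo replicate 3 the log2 fold change of Notch3 was -0.30 (edgeR adjusted p = 0.413); leaving out this library thus brought the difference closer to 0.

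Notch1, the receptor of the endocardium and arterial endothelium (mm9, chromosome 2, 26313423 to 26372183), measured 78.3, 72.3, 78.7 and 71.9 CPM in CTRL and 67.9, 84.6, 40.7 and 72.0 CPM in Isl1_hypo. The Isl1_hypo libraries lay on both sides of CTRL. The log2 fold change was -0.18 (SE 0.183, 95% interval -0.59 to 0.22, edgeR adjusted p = 0.716), and -0.01 without Isl1_hypo replicate 3. Notch2, a receptor needed for outflow tract and vessel wall development (mm9, chromosome 3, 97817461 to 97954290), measured 93.1, 90.9, 94.1 and 94.2 CPM in CTRL and 83.0, 68.6, 103 and 59.3 CPM in Isl1_hypo. Replicate 3 was above every CTRL library and the other 3 Isl1_hypo libraries were below every one. The log2 fold change of Notch2 was -0.25 (SE 0.152, 95% interval -0.58 to 0.09, edgeR adjusted p = 0.547), and without Isl1_hypo replicate 3 it was -0.41 (edgeR adjusted p = 0.197), past an unadjusted 0.05. Notch2 was at -0.38 with limma-voom (adjusted p = 0.156), again past an unadjusted 0.05, at -0.42 with the globin covariate and at -0.04 with the trend of fold change on transcript length removed, an analysis added after seeing the data. The CTRL libraries were close together for these 2 receptors, with a coefficient of variation of 4.92% for Notch1 and 1.64% for Notch2, whereas those of Isl1_hypo were 27.8% and 24.3%.

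Of the ligands, Jag2 was lower in every Isl1_hypo library than in any CTRL library, and the groups overlapped for Jag1 and Dll4. Jag2, a Jagged ligand (mm9, chromosome 12, 114146801 to 114167706), measured 10.1, 7.65, 6.63 and 7.84 CPM in CTRL and 5.21, 5.96, 2.75 and 5.50 CPM in Isl1_hypo. Its mean was 60.2% of CTRL and its log2 fold change -0.73 (SE 0.271, 95% interval -1.33 to -0.14, edgeR adjusted p = 0.315). The exact permutation test gave p = 0.0286 for Jag2 as well, which again only restates that its groups did not overlap. Without Isl1_hypo replicate 3 the log2 fold change was -0.54 (edgeR adjusted p = 0.391), with the groups still apart.

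Jag1, the ligand whose loss in people causes Alagille syndrome with outflow tract defects (mm9, chromosome 2, 136907192 to 136942380), measured 59.3, 60.2, 71.1 and 41.9 CPM in CTRL and 68.9, 63.9, 45.1 and 35.7 CPM in Isl1_hypo. High and low libraries occurred in both groups. Its log2 fold change was -0.12 (SE 0.217, 95% interval -0.60 to 0.35, edgeR adjusted p = 0.858), and -0.05 without Isl1_hypo replicate 3. Dll4, the Delta-type ligand of arterial endothelium (mm9, chromosome 2, 119151520 to 119161698), measured 13.1, 10.2, 9.24 and 10.3 CPM in CTRL and 12.0, 13.2, 6.16 and 11.3 CPM in Isl1_hypo. Apart from replicate 3, the Isl1_hypo libraries were within or just above the CTRL range. The log2 fold change of Dll4 was -0.01 (SE 0.237, 95% interval -0.53 to 0.51, edgeR adjusted p = 0.991), and 0.18 without Isl1_hypo replicate 3.

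Among the targets Heyl had the largest difference of the 10 genes, and the other 3 differed by at most 0.13 on the log2 scale. Heyl, a Hairy-related repressor expressed in vascular smooth muscle (mm9, chromosome 4, 122910799 to 122927118), measured 26.1, 19.9, 14.2 and 19.4 CPM in CTRL and 14.4, 10.3, 4.65 and 12.8 CPM in Isl1_hypo. The groups touched at 1 point, since the lowest CTRL library, replicate 3, was just below the highest Isl1_hypo library, replicate 1. The mean was 53.0% of CTRL and the log2 fold change -0.92 (SE 0.308, 95% interval -1.59 to -0.25, edgeR adjusted p = 0.292). The exact permutation test for Heyl gave p = 0.0571. For the members other than Notch3, Jag2 and Heyl it gave p from 0.229 (Notch2) to 0.971 (Dll4). Of all genes tested, 2.86% had a fold change as low as Heyl or lower. Without Isl1_hypo replicate 3 the log2 fold change was -0.67 (edgeR adjusted p = 0.264). Over all 22 alternative analyses the lowest adjusted p of Heyl was 0.0929, with DESeq2.

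Hes1, a bHLH repressor active in second heart field progenitors (mm9, chromosome 16, 30064470 to 30067882), measured 48.0, 44.7, 62.0 and 45.0 CPM in CTRL and 46.8, 51.2, 61.2 and 51.0 CPM in Isl1_hypo. All 4 Isl1_hypo libraries lay within the CTRL range. Its log2 fold change was 0.07 (SE 0.141, 95% interval -0.23 to 0.38, edgeR adjusted p = 0.866), and -0.01 without Isl1_hypo replicate 3. Hey1, the Hairy-related factor typical of atrial myocardium and endothelium (mm9, chromosome 3, 8663362 to 8667039), measured 38.6, 47.2, 37.1 and 51.4 CPM in CTRL and 58.3, 46.7, 37.8 and 47.5 CPM in Isl1_hypo. Isl1_hypo replicate 1 was above the CTRL range and the rest were inside it. Its log2 fold change was 0.13 (SE 0.159, 95% interval -0.22 to 0.48, edgeR adjusted p = 0.784), and 0.22 without Isl1_hypo replicate 3.

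Hey2, its counterpart in ventricular myocardium, whose promoter window held both Rbpj cores (mm9, chromosome 10, 30552165 to 30562607), measured 113, 106, 97.8 and 116 CPM in CTRL and 128, 133, 82.5 and 108 CPM in Isl1_hypo. Isl1_hypo replicates 1 and 2 were above CTRL, replicate 3 was below it and replicate 4 was inside it. The log2 fold change was 0.06 (SE 0.143, 95% interval -0.25 to 0.37, edgeR adjusted p = 0.898), and 0.18 without Isl1_hypo replicate 3. The intervals of Hes1, Hey1 and Hey2 leave room for a change of up to 0.38, 0.48 and 0.37 upward on the log2 scale. Within each library, Heyl relative to Hey2 was 0.145 to 0.230 CPM per CPM in CTRL and 0.0563 to 0.118 in Isl1_hypo, so the 2 Hairy-related genes stood in a different proportion in every Isl1_hypo library. Hey2 relative to Hey1 overlapped, at 2.52 ± 0.337 in CTRL and 2.37 ± 0.316 in Isl1_hypo (SD, n = 4 each). These ratios were chosen with earlier results of these data known and were not tested.

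**Figure D3:**
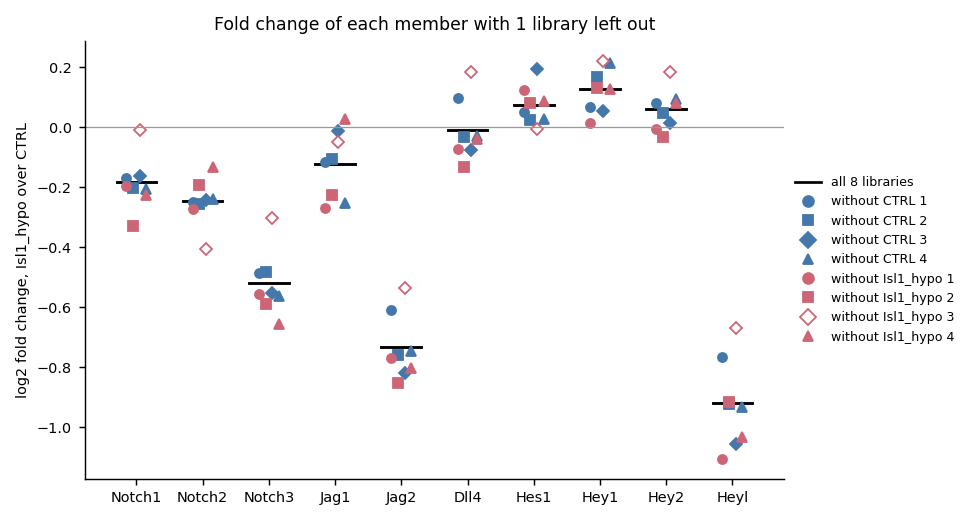
Log2 fold change of each Notch gene (Isl1_hypo over CTRL) with all 8 libraries (black line) and with each library left out in turn (blue, a CTRL library left out; red, an Isl1_hypo library left out; open diamond, without Isl1_hypo replicate 3). Notch3, Jag2 and Heyl stay below 0 throughout, at -0.30 or lower, whereas Jag1, Dll4, Hes1 and Hey2 cross 0.

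Notch1, Notch4 and Dll4 are known from endothelium and endocardium, and Notch3 and Heyl from vascular smooth muscle, so markers of these cells were read beside them. The summed CPM of 10 endothelial and endocardial markers was 840 to 989 in CTRL and 707 to 892 in Isl1_hypo, with 7 of the 10 lower, and none called by edgeR. Pecam1, an endothelial adhesion molecule, had a log2 fold change of -0.58 (edgeR adjusted p = 0.170) and Cdh5, the cadherin of endothelial junctions, of -0.54 (edgeR adjusted p = 0.241), the 2 markers at an unadjusted p under 0.05. Of the endocardial markers, Nfatc1 was at 0.36 (edgeR adjusted p = 0.477), Npr3 at 0.28 (edgeR adjusted p = 0.582) and Emcn at 0.23 (edgeR adjusted p = 0.475). Per 1000 endothelial CPM, Jag2 was 8.82 ± 1.13 in CTRL and 6.04 ± 1.58 in Isl1_hypo (SD, n = 4 each). The groups did not overlap but nearly touched, at 7.63 in the lowest CTRL and 7.59 in the highest Isl1_hypo library. Heyl was 21.7 ± 4.33 and 13.1 ± 5.09 and Notch3 43.5 ± 5.21 and 34.4 ± 11.5 on this scale, both with overlap. Notch1 was 83.0 ± 6.61 and 82.4 ± 19.0 per 1000 endothelial CPM and Dll4 11.7 ± 1.22 and 13.2 ± 3.08, with overlap. Notch4 was 6.12 ± 1.25 and 3.53 ± 1.36, and its groups, which were apart in CPM, overlapped on this scale. Hey2 was 119 ± 6.19 and 140 ± 15.9 on the same scale, higher on average in Isl1_hypo but with overlap. In CPM its log2 fold change was only 0.06 (edgeR adjusted p = 0.898), while the endothelial sum averaged 911 in CTRL and 799 in Isl1_hypo. Hey2 is known from ventricular myocardium, so its ratio to endothelial markers is not a measure of Hey2 alone. Without Isl1_hypo replicate 3 the Isl1_hypo means were 6.75 for Jag2, 15.2 for Heyl, 39.1 for Notch3 and 148 for Hey2, the last then above every CTRL library. Of 5 smooth muscle markers, whose sum was 5110 to 7616 CPM in CTRL and 5182 to 7509 CPM in Isl1_hypo, 4 were lower, 1 of them, Myh11, at an unadjusted p under 0.05 on at most 1.59 CPM in any library. Rgs5, known from pericytes and listed here with the outflow tract, had a log2 fold change of -1.02 (edgeR adjusted p = 0.146), with groups that did not overlap, and -0.89 without Isl1_hypo replicate 3. Without that library the Isl1_hypo sums were 724 to 892 CPM for endothelium and 5989 to 7509 CPM for smooth muscle. Among markers of other cells the dissection could hold, those of epithelium did not overlap, with sums of 67.7 to 115 CPM in CTRL and 124 to 242 CPM in Isl1_hypo, and Isl1_hypo replicate 1 alone held 708 counts of Cldn6 and 282 of Cdh1, which had at most 8 and 9 in the others. Mesenchyme markers summed to 888 to 1537 and 659 to 1652 CPM. Of these 6 markers 5 were lower in Isl1_hypo and 1 was higher, with 2 lower at an unadjusted p under 0.05. Atrial markers summed to 57.9 to 72.3 and 63.3 to 83.9 CPM, a sum in which Sln fell by 2.28 on the log2 scale (edgeR adjusted p = 0.017) and Nr2f2 was at 0.97 (edgeR adjusted p = 0.173). Neuronal markers summed to 53.5 to 78.3 and 32.9 to 55.0 CPM. Neural crest markers, of which Foxd3 was at 0 counts in 7 of 8 libraries, summed to 59.3 to 65.1 and 55.3 to 85.1 CPM and macrophage markers to 7.17 to 13.3 and 2.24 to 12.2 CPM. Without Isl1_hypo replicate 3 the lowest Isl1_hypo sums were 677 CPM for mesenchyme, 47.2 CPM for neurons and 3.82 CPM for macrophages. The part of any of these cells, pericytes included, in the Notch3, Jag2 and Heyl differences was not tested. When globin level, higher in most Isl1_hypo libraries, was added to the fit as a covariate, the log2 fold changes were -0.15 for Notch3, -0.43 for Jag2 and -0.53 for Heyl. In that fit 0 of 10 genes had an unadjusted p under 0.05, where 499 of all 13769 genes did, against 1634 without a covariate. The count was also 0 with the Y-linked level as a covariate, where 943 of all 13769 genes passed. In that fit, added after seeing the data, the log2 fold changes were -0.43 for Notch3, -0.54 for Jag2 and -0.75 for Heyl.

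The rest of the pathway was read from 46 further genes, of which 43 passed the filter on low counts and Dll3, Hes5 and Dtx1 did not. In edgeR 0 of 43 passed the adjusted threshold, and at an unadjusted p under 0.05 there were 6, 5 lower and 1 higher in Isl1_hypo, beside the 11.9% of all genes in either direction and 6.17% lower. The fitted difference was negative for 24 and positive for 19, with a median of -0.03. Notch4, the endothelial receptor, measured 5.09, 5.58, 6.63 and 4.77 CPM in CTRL and 2.72, 3.19, 1.49 and 3.87 CPM in Isl1_hypo. All Isl1_hypo libraries were below all CTRL libraries, with a log2 fold change of -0.97 (SE 0.316, edgeR adjusted p = 0.283), and -0.76 without Isl1_hypo replicate 3. Spen, a corepressor that binds Rbpj, measured 22.7, 25.3, 18.6 and 24.0 CPM in CTRL and 11.4, 14.4, 11.2 and 16.8 CPM in Isl1_hypo. Its groups did not overlap either, with a log2 fold change of -0.75 (SE 0.175, edgeR adjusted p = 0.130), and -0.67 without Isl1_hypo replicate 3. DESeq2 called it (adjusted p = 0.0087) as 1 of the 43, where it called 2.32% of all genes.

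By role, the nuclear genes at an unadjusted p under 0.05 included Spen and the coactivator Maml1, which had a log2 fold change of -0.45 (edgeR adjusted p = 0.322). Rbpj itself had a log2 fold change of -0.02 (edgeR adjusted p = 0.981). Among the 10 genes of receptor cleavage, Furin, the protease that cuts the receptor during its maturation, was at -0.51 (edgeR adjusted p = 0.216) with no overlap between groups, and at -0.50 without Isl1_hypo replicate 3, and Adam10 was at 0.18 (edgeR adjusted p = 0.692). Of the 5 genes that add sugars to the receptor, Poglut1 was at 0.21 with no overlap (edgeR adjusted p = 0.414), and none of the 12 endocytosis and turnover genes was at an unadjusted p under 0.05. The 3 further targets also showed no difference beyond their spread, with Nrarp, a feedback inhibitor, at -0.22 (edgeR adjusted p = 0.706) and Hes6 at 0.11 (edgeR adjusted p = 0.773). Hes7, at most 1.89 CPM in any library, was at -0.37 (edgeR adjusted p = 0.753) with overlap between groups. Of the other ligands, Dll1 was at 0.25 (edgeR adjusted p = 0.757).

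**Figure D4:**
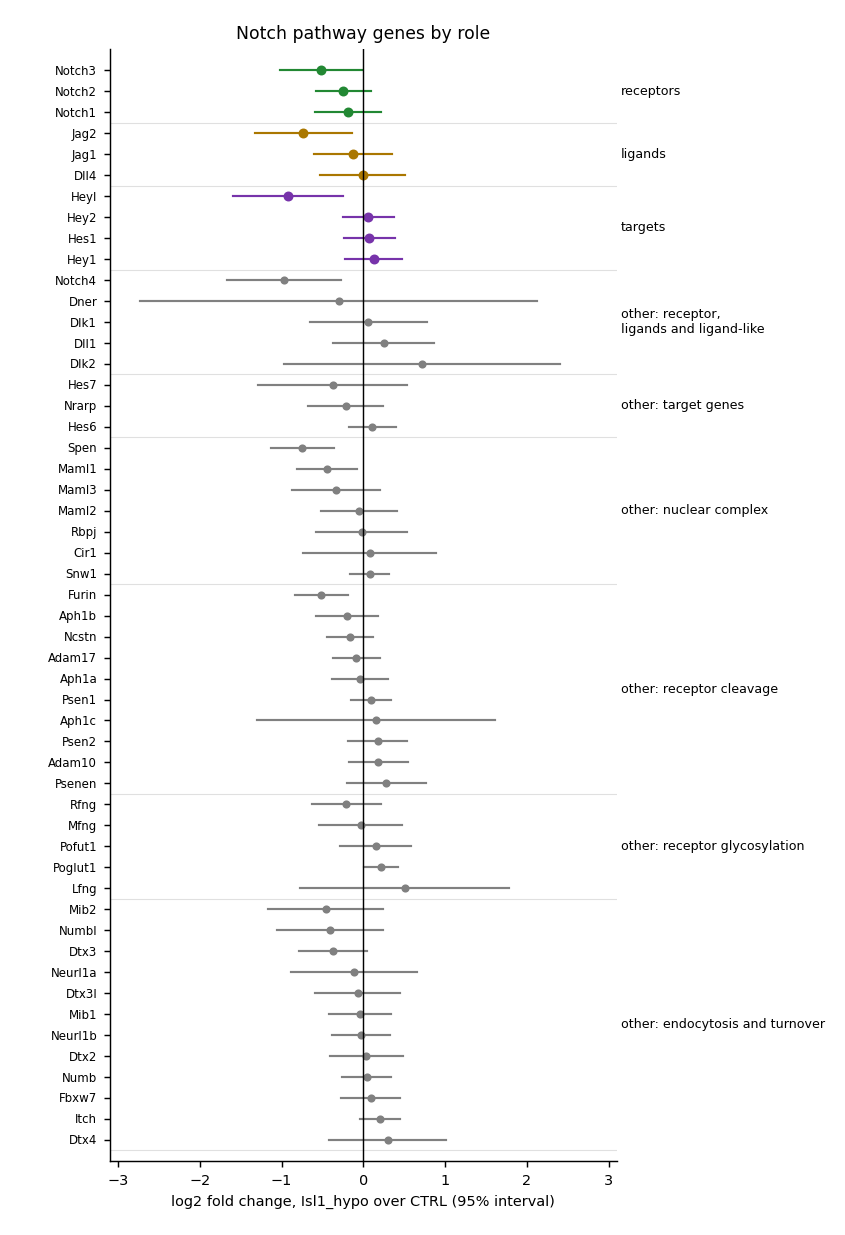
Log2 fold change (Isl1_hypo over CTRL, edgeR) with 95% intervals, from 4 libraries a group, for the 10 Notch genes (colours) and 42 other pathway genes (grey), ordered by role and then by value. Intervals exclude 0 for Notch3, Jag2 and Heyl and for 5 of the 42 others, and no gene shown passed the adjusted threshold in edgeR.

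Genes with the pattern most like the most abundant member of each role were sought among 10743 genes with a mean of at least 5 CPM, as the Pearson correlation of log2 CPM over the 8 libraries. Closest to Notch2 were Grap (r = 0.97) and Map3k1 (r = 0.94), to Jag1 Cpne1 (r = 0.96) and Phka1 (r = 0.93), and to Hey2 Dapk1 (r = 0.97) and Sv2a (r = 0.96). The 8 points share their libraries, including Isl1_hypo replicate 3, which was the highest of all 8 for Notch2, Grap and Map3k1 and the lowest of all 8 for Hey2, Dapk1 and Sv2a.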

How the data were processed

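Libraries were made from polyA RNA of single embryos and sequenced on BGISEQ-500, per the labels. The authors mapped reads to mm9 with STAR and counted reads over exons of each RefSeq transcript with HOMER, on both strands, and deposited these counts, RPKM computed with edgeR, and transcript lengths. The comparison columns the authors deposited (DESeq2 baseMean signal, log2 fold change with its error, Wald score, p-value and adjusted p-value) were not used.

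The transcript of highest mean count was kept for each symbol. Counts were filtered with filterByExpr, scaled by TMM and fitted with edgeR 4.0.16 (R 4.3.3, quasi-likelihood test, all 8 libraries, no covariate), with Benjamini-Hochberg adjustment over 13769 genes at 0.05. log2 CPM used a prior count of 2. DESeq2 1.42.0 and limma 3.58.1 (voom with sample quality weights) served as alternatives, and single genes were also tested by exact permutation. Scripts were tested on simulated data. Reads without strand cannot separate a gene from an antisense partner. Members, lists and tests were chosen with earlier results of these data known. Named genes were Isl1, the 10 members, genes of the listed pathway and marker sets, and the 2 genes most correlated with the most abundant member by mean CPM of each role. The values of 1 pathway gene are not reported here, though the counts over the list include it.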

Additional observations from a re-analysis of the deposited data

How the results depend on the processing

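Over 22 alternatives, 0 of the 10 Notch genes were called, and of 220 fold changes 205 kept their direction and side of the threshold and 15 reversed. None of the reversed values was called. With the globin covariate Notch1 was 0.035, Jag1 0.31, Dll4 0.30 and Hes1 -0.0068. The median of the 10 genes, which is not among the 220, was 0.014 there. Dll4 was 0.20 with limma-voom, 0.16 with the Y-linked covariate, 0.039 with the length trend removed and 0.067 with the GC trend removed. Hes1 was -0.034 with the Y-linked covariate. The rest reversed with 1 library left out. Jag1 was 0.029 without Isl1_hypo replicate 4, and Hes1 was -0.0070 without Isl1_hypo replicate 3. Dll4 was 0.098 without CTRL replicate 1 and 0.18 without Isl1_hypo replicate 3. Hey2 was -0.0049 without Isl1_hypo replicate 1 and -0.032 without Isl1_hypo replicate 2. With limma-voom, which weights samples, Notch1 was -0.04 and the median -0.06. With the length trend removed Notch2 was -0.039 and the median -0.035. The level of Hey2 was 26.3 in RPKM and 42.8 in TMM-scaled CPM per kb, and that of Dll4 1.91 and 3.12. With 1 library left out, Jag1 ran from -0.27 to 0.029, Dll4 from -0.13 to 0.18, Hes1 from -0.0070 to 0.19, Hey2 from -0.032 to 0.18, the median from -0.23 to -0.03 and Isl1 from -2.46 to -2.14.

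The number of Notch genes at an unadjusted p under 0.05 was 0 with the globin covariate and 0 with the Y-linked covariate (Notch3 -0.43, Jag2 -0.54, Heyl -0.75). Of all 13769 genes, 499 and 943 passed in these fits, against 1634 in the main fit. With 1 library left out the number was 1 (without CTRL replicate 1, 1418 of 13963 genes) to 4 (without Isl1_hypo replicate 3, 1514 of 13909). For the 43 other pathway genes it was 2 with the globin covariate and 3 with the GC trend removed (1430 of 12587 genes). With 1 library left out it was 3 (without CTRL replicate 2, 1285 of 13881 genes, or CTRL replicate 4, 1414 of 13873) to 8 (without Isl1_hypo replicate 4, 1577 of 13964). DESeq2 called 1 of the 43. Genes called over the whole table, 37 in edgeR, were 319 with DESeq2, 134 with limma-voom, 63 with every transcript tested, 56 with the GC trend removed and 3 with the Y-linked covariate. Leaving out 1 library gave 4 (CTRL replicate 3), 5 (CTRL replicate 2), 8 (CTRL replicate 1), 11 (Isl1_hypo replicate 4), 12 (Isl1_hypo replicate 2), 27, 40 or 48 (Isl1_hypo replicate 3). With a replicate block edgeR called 0 genes (1582 at an unadjusted p under 0.05) and Isl1 was -2.29 (adjusted p = 0.0722); the labels' numbers did not pair the samples, since same-numbered libraries correlated at -0.02 to 0.02 in their deviations. With the globin covariate edgeR called 0 genes (499 unadjusted) and Isl1 was -2.30 (adjusted p = 0.518). The cause of these changes was not tested. The Y-linked, length and GC analyses were added after seeing the data. The biological coefficient of variation over all genes was 26.4%, and the intervals given for each Notch gene show the sizes that 4 libraries a group leave undecided.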
